A study of Mus musculus with 32 samples.

Results

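The 10 transcription factors described here, *Bcl11b*, *Foxp1*, *Foxp2*, *Isl1*, *Ebf1*, *Six3*, *Meis2*, *Rarb*, *Rxrg* and *Zfp521*, were chosen by name for their roles in striatal projection neurons. They are 10 of the 23420 gene rows of each count table, and all 10 passed the filter on low counts that left 15589 genes for testing. RNA-seq counts came from bilateral punches of the striatum, pooled per mouse, from 8 naïve Line 4a mice (B6.D2 congenic, strain C57BL/6J-DBA/2J in the labels) and 8 naïve B6 (C57BL/6J) littermates at about 50 days of age. Line 4a mice carry a segment of chromosome 11 from the D2 strain on 1 chromosome of the pair and are B6 elsewhere, so that both groups share the B6 background and no mouse had received a drug. The line was derived to ask how a chromosome 11 locus alters the locomotor response to methamphetamine, and the comparison addresses whether the projection neuron factors differ between the genotypes. The labels do not tie a mouse to a home cage, the covariate in the study's own model, and neither cage nor sex entered the fits.

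Striatal projection neurons are the GABAergic output cells of the striatum and arise from the lateral ganglionic eminence. Those of the direct pathway carry the D1 dopamine receptor, and those of the indirect pathway carry the D2 dopamine receptor. *Bcl11b*, *Foxp1*, *Meis2*, *Rarb* and *Rxrg* act in projection neurons of both pathways or their precursors, *Isl1* and *Ebf1* are known for the differentiation of direct-pathway neurons, and *Six3* for that of indirect-pathway neurons. In bulk tissue, fewer cells of a type and less RNA per cell cannot be told apart. Genes of projection neurons were abundant in every library: 14 genes of both pathways summed to 11800 to 16888 CPM among the B6 and 12932 to 14492 CPM among the Line 4a libraries, where CPM stands for counts scaled to a common library size, with TMM factors.

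Between 19032826 and 33748353 reads per B6 mouse and between 24912413 and 32085311 per Line 4a mouse were counted on genes, and 1 of the 2 lane files of B6 mouse 7 was not analysed here. A pair of libraries stood apart. In Line 4a mouse 1, 27.3% of the entries tallied by the counting program had more than 1 alignment, against 19.5% to 21.4% in the other 15 mice. In B6 mouse 8, 68.3% of entries were counted on genes, against 61.4% to 64.4% in the others. A read with several alignments can hold several entries, so that these are not shares of reads. Fold changes of the factors that turn sign, or move by over 1.5 times, without either mouse are given below with and without it.

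None of the 10 factors passed the test for a difference between Line 4a and B6 mice. The quasi-likelihood test of edgeR called, at an FDR of 5%, 1 of 15589 genes, or 0.00641% of those tested, and no factor was among them. At an unadjusted p under 0.05 it called 1559 genes, or 10% of them, and again 0 of the 10 factors. Their p-values ran from 0.0939 for *Six3* to 0.996 for *Rxrg*, and their FDRs from 0.563 to 0.999. DESeq2, run as an alternative, also called 0 of 10 at either threshold. In each of the 10, the range of Line 4a mice overlapped the range of B6 mice, while the genotypes did not overlap for 9 genes in all, or 0.0577% of those tested.

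The log2 fold change, Line 4a minus B6, had a median of 0.04 over the 10 factors and of 0.01 over all genes tested. It was above 0 for 7 factors and below 0 for 3, which is a count of signs and not of calls. The 95% intervals show what size of difference the 16 mice leave possible. They reached from -0.42 at the lowest, for *Ebf1*, to 0.44 at the highest, for *Six3*, and those of the other 8 factors lay between -0.22 and 0.23. The plot of fold changes shows each estimate with its interval.

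**Figure D1:**
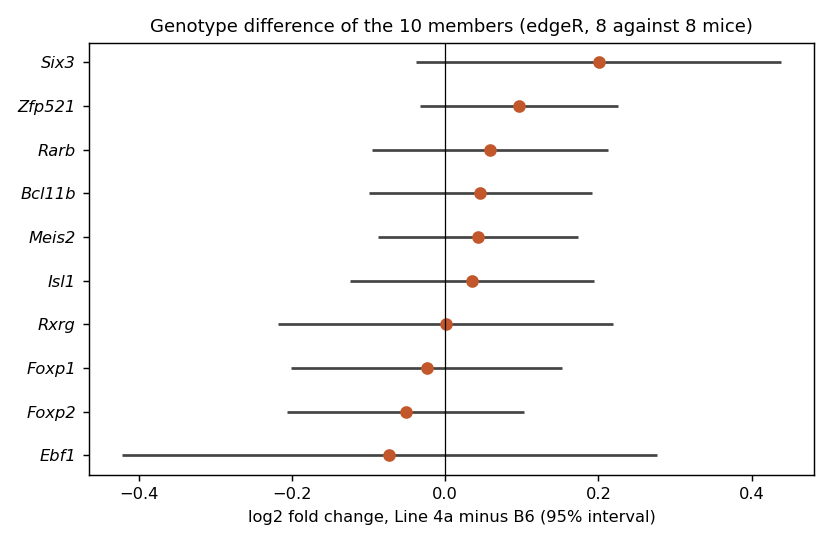
Log2 fold change of each of the 10 factors, Line 4a minus B6, from edgeR (points), with its 95% interval (lines); 8 mice per genotype. Every interval includes 0, the estimates run from -0.07 (*Ebf1*) to 0.20 (*Six3*), and the intervals of *Ebf1* and *Six3* are the widest.

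Per kilobase of exon the factors fell into an abundant group and a scarce group. The length is that of all annotated exons of a gene joined, from 2297 bp for *Rxrg* to 13457 bp for *Foxp2*. The order below rests on these lengths, which were not compared with the transcripts present in this tissue. *Rxrg* (46.0 ± 7.27 CPM per kb, SD, n = 16), *Bcl11b* (42.0 ± 4.11), *Rarb* (35.1 ± 3.76), *Meis2* (32.7 ± 2.83) and *Foxp1* (24.3 ± 2.97) were the most abundant, in that order. *Six3* (7.05 ± 1.30), *Isl1* (6.97 ± 0.715), *Foxp2* (4.46 ± 0.483) and *Zfp521* (4.43 ± 0.393) followed, and *Ebf1* (0.750 ± 0.157) was the lowest. The ranges over mice did not overlap between *Foxp1* and *Six3* or between *Zfp521* and *Ebf1*, and they overlapped between all other neighbours in this order. Even so, *Bcl11b* was above *Rarb* and *Meis2* above *Foxp1* in 16 of 16 mice, whereas *Six3* was above *Isl1* in 8 and *Foxp2* above *Zfp521* in 6. *Rxrg* stood at percentile 91.9 and *Ebf1* at percentile 14.2 of the 14628 tested genes with an annotated exon length.

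**Figure D2:**
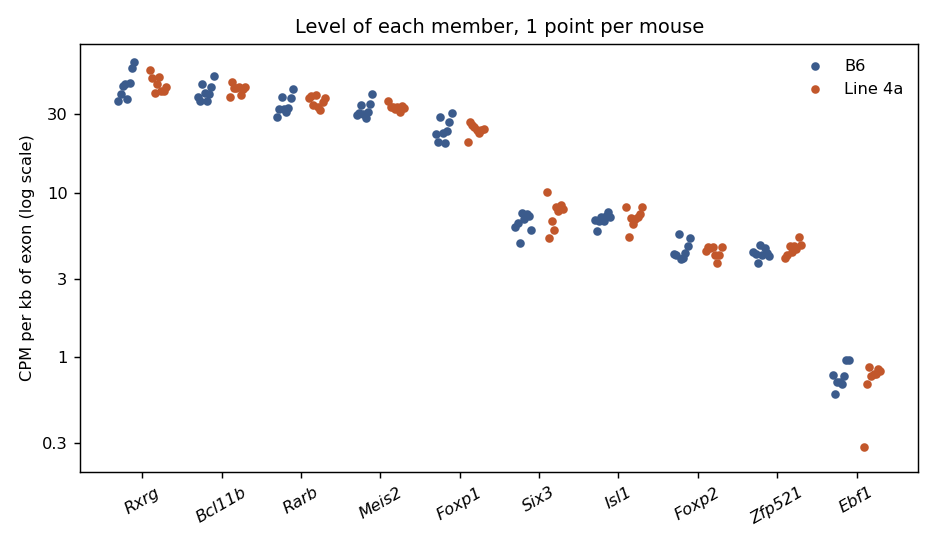
Level of each factor in CPM per kb of exon (log scale), 1 point per mouse, B6 in blue and Line 4a in orange, in order of the mean over 16 mice. A gap separates the 5 most abundant factors, all at 20.1 or above, from the others, all at or below 10.1, and the lowest *Ebf1* point, 0.283, is Line 4a mouse 1.

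*Bcl11b* (chr12:107910403-108004145, minus strand, GRCm38) encodes a zinc-finger protein, also called Ctip2, that is needed for the differentiation of projection neurons. Its level was 290.3 CPM in the lowest B6 mouse, 325 at the median and 415 in the highest, and 308, 352 and 380.2 CPM in Line 4a mice. All 8 Line 4a mice lay inside the B6 range, whose top is B6 mouse 8. The fold change of 0.05 ± 0.07 (log2, SE) had an edgeR p of 0.520 and an exact permutation p of 0.474 (two-sided, as are all those below). Without B6 mouse 8 the fold change was 0.09 with an edgeR p of 0.126.

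Neither forkhead factor passed the test. *Foxp1* (chr6:98925342-99522746, minus strand), which both kinds of projection neuron use, ranged from 239.5 through a median of 279 to 364 CPM in B6 mice and from 242 through 287 to 321 CPM in Line 4a mice, so that the Line 4a mice again fell inside the B6 range. Its fold change was -0.02 ± 0.08 (log2, SE; edgeR p = 0.778, exact permutation p = 0.880), and its sign turned without Line 4a mouse 1 (0.0074, edgeR p = 0.927) and without B6 mouse 8 (0.025, edgeR p = 0.752). *Foxp2* (chr6:14901349-15441977, plus strand), the relative known from human speech disorders, ranged from 52.8 through 57.6 to 74.9 CPM in B6 mice and from 50.1 through 60.5 to 62.6 CPM in Line 4a mice. Of the Line 4a mice, 7 were within the B6 range and 1 was below it, and the fold change was -0.05 ± 0.07 (log2, SE; edgeR p = 0.492, exact permutation p = 0.574). Without B6 mouse 8 it was -0.02 (edgeR p = 0.794). In the GENCODE annotation *Foxp1* shares 75 bp of exon with *Eif4e3* on the same strand; reads in such a stretch enter neither gene's count in union mode.

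*Meis2* (chr2:115861264-116067537, minus strand) encodes a homeodomain protein of the TALE class that is present from the ganglionic eminence onwards. B6 mice had 337 CPM at the lowest, 363 at the median and 474 at the highest, and Line 4a mice 368, 392 and 430.4 CPM. Each Line 4a mouse exceeded the B6 median, and each was inside the B6 range. The means differed by 2.99%, and the fold change of 0.04 ± 0.06 (log2, SE) was smaller than the spread between mice (edgeR p = 0.505, exact permutation p = 0.443). The SD was 45.1 CPM among B6 mice and 17.7 CPM among Line 4a mice, the highest B6 value being that of mouse 8, without which the fold change was 0.09 (edgeR p = 0.0771). Without Line 4a mouse 1 it was 0.02 (edgeR p = 0.719).

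*Rarb* (chr14:16430839-17082331, minus strand) and *Rxrg* (chr1:167598362-167639623, plus strand) encode a retinoic acid receptor and a retinoid X receptor, nuclear receptors that bind DNA as a pair at direct repeats and switch genes on when retinoic acid is bound. *Rarb* ranged from 95.1 through 107 to 140.5 CPM in B6 mice and from 104 through 119.7 to 129 CPM in Line 4a mice (fold change 0.06 ± 0.07, log2, SE; edgeR p = 0.438, exact permutation p = 0.412). *Rxrg* ranged from 82.6 through 103 to 142 CPM in B6 mice and from 92.4 through 103 to 127 CPM in Line 4a mice, and its fold change was 0.00 ± 0.10 (log2, SE; edgeR p = 0.996, exact permutation p = 0.895). For both receptors all 8 Line 4a mice lay inside the B6 range. Without B6 mouse 8 the fold change was 0.11 for *Rarb* (edgeR p = 0.113) and 0.07 for *Rxrg* (edgeR p = 0.450). Without Line 4a mouse 1 that of *Rxrg* was -0.04 (edgeR p = 0.679).

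The promoter windows of these receptors are shown because autoregulation by retinoic acid through a direct repeat at *Rarb* is textbook knowledge and because both genes varied together across mice. Their Pearson r was 0.75, and 0.56 without the 2 mice farthest from the median of *Rxrg*. Such variation was not particular to the pair, as *Rarb* had r = 0.85 with *Foxp2* and 0.84 with *Meis2*. RefSeq windows on GRCm38.p6, from 250 bases before to 50 bases after an annotated start, matched 8 of the 10 factors, with 12 windows. Capitals mark, in *Rarb* (chr14:16575427-16575726, minus strand), the match to the direct repeat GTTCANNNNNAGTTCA and, in *Rxrg* (chr1:167618015-167618314, plus strand, 1 of its 2 windows), the half-sites AGTTCA and AGGTCA.
Rarb: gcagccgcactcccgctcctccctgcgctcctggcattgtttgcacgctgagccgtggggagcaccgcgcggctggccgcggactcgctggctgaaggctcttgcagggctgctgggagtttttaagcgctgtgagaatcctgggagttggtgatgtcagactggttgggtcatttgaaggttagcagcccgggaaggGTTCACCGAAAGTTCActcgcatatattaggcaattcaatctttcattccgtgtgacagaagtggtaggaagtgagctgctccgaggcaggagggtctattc
Rxrg: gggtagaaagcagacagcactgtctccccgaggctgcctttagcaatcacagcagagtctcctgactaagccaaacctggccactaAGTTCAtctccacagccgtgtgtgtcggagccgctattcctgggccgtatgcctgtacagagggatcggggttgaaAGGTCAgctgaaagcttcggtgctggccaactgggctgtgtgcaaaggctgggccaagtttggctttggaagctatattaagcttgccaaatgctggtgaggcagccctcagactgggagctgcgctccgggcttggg
Searched on both strands, the direct repeat was in 11 of 32851 windows, or 0.0335%. Among the 12 windows of the factors it was in that of *Rarb*. The pattern was spelled as the repeat at *Rarb*, apart from its free middle letters, so that this match was given by the choice. The percentage is that of this spelling, and direct repeats with other half-sites were not searched. In *Rarb* the match starts at position -52 from the start that the window is built on. That start lies inside the full span of the gene given above. The half-site AGTTCA, which the direct repeat contains, was in 13.99% of all windows and in those of *Rarb* and *Rxrg*, and AGGTCA was in 16.3% of all windows and in that of *Rxrg* alone among the factors. In *Rxrg* these half-sites start at positions -164 and -88 from the start of its window, also inside the span of the gene. The motif TGACAG, which MEIS proteins bind, was in 19.2% of all windows and in windows of *Foxp1*, *Rarb* and *Six3*, and the palindrome TCCCNNGGGA of EBF proteins was in 0.904% of all windows and in 0 of the 12. A match of letters is a description of the window and not evidence of binding in this tissue.

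*Isl1* (chr13:116298270-116309688, minus strand) encodes a LIM-homeodomain protein of direct-pathway and cholinergic neurons. B6 mice had 14.8 CPM at the lowest, 17.5 at the median and 19.3 at the highest, and Line 4a mice 13.6, 17.8 and 20.7 CPM. Line 4a mice spread on both sides of the B6 range, with 2 above it and 1 below it. The fold change was 0.03 ± 0.08 (log2, SE; edgeR p = 0.654, exact permutation p = 0.753), and 0.0011 without Line 4a mouse 1 (edgeR p = 0.988).

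*Ebf1* (chr11:44618100-45008096, plus strand) is the only one of the 10 on chromosome 11, and it lies proximal to the D2 segment that the study maps in Line 4a. It encodes a helix-loop-helix factor of direct-pathway differentiation. B6 mice had 5.85 CPM at the lowest, 7.21 at the median and 9.34 at the highest, and Line 4a mice 2.76, 7.68 and 8.47 CPM. The lowest value was that of Line 4a mouse 1, with 88 reads, and it was low in both lane files (49 reads in lane 5 and 39 in lane 6), while the other 7 Line 4a mice had 6.71 to 8.47 CPM. With all 16 mice the fold change was -0.07 ± 0.17 (log2, SE; edgeR p = 0.667, exact permutation p = 0.727). Without B6 mouse 8 it was -0.02 (edgeR p = 0.891). Without Line 4a mouse 1 its sign turned, to 0.05 (edgeR p = 0.586), and the coefficient of variation of the Line 4a mice went from 25.8% to 7.31%. That library's share of tallied entries with more than 1 alignment, 27.3%, moves with this value, and its part in it was not tested.

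*Zfp521*, on chromosome 18, encodes a zinc-finger protein that binds EBF1 and restrains it. Its range was 23.1 to 29.5 CPM around a median of 26.4 in B6 mice and 24.6 to 33.1 CPM around a median of 28.7 in Line 4a mice. In Line 4a, 6 mice exceeded the B6 median and 2 exceeded every B6 mouse. The fold change of 0.10 ± 0.06 (log2, SE) had an edgeR p of 0.135, an FDR of 0.604 and an exact permutation p of 0.140. Without Line 4a mouse 1 it was 0.12 with an edgeR p of 0.0447 and an FDR of 0.361.

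*Six3* (chr17:85613608-85626191, plus strand), a homeodomain factor of indirect-pathway neurons, had the largest fold change of the 10. B6 mice had 42.9 CPM at the lowest, 58.9 at the median and 65.4 at the highest, and Line 4a mice 46.6, 68.4 and 88.3 CPM. Of the Line 4a mice, 5 were above every B6 mouse, and the 3 others were inside the B6 range. The means, 57.4 ± 7.68 CPM (SD, n = 8) and 66.0 ± 13.3 CPM (SD, n = 8), differed by 14.8%. The fold change was 0.20 ± 0.11 (log2, SE), with an edgeR p of 0.0939, an FDR of 0.563 and an exact permutation p of 0.169. Leaving out 1 mouse moved it between 0.13, without Line 4a mouse 1 (edgeR p = 0.219), and 0.26, without Line 4a mouse 2, where the edgeR p was 0.0225 and the FDR 0.370.

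*Six3* overlaps an antisense RNA, *Six3os1*, in 106 bp of exon, and the reads were counted without regard to strand, so that reads of the shared stretch cannot be assigned. *Six3os1* has its own counts, 20.2 ± 3.72 CPM in B6 mice and 22.2 ± 4.23 CPM in Line 4a mice (SD, n = 8 each). Its fold change was 0.13 ± 0.13 (log2, SE; edgeR p = 0.310).

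**Figure D3:**
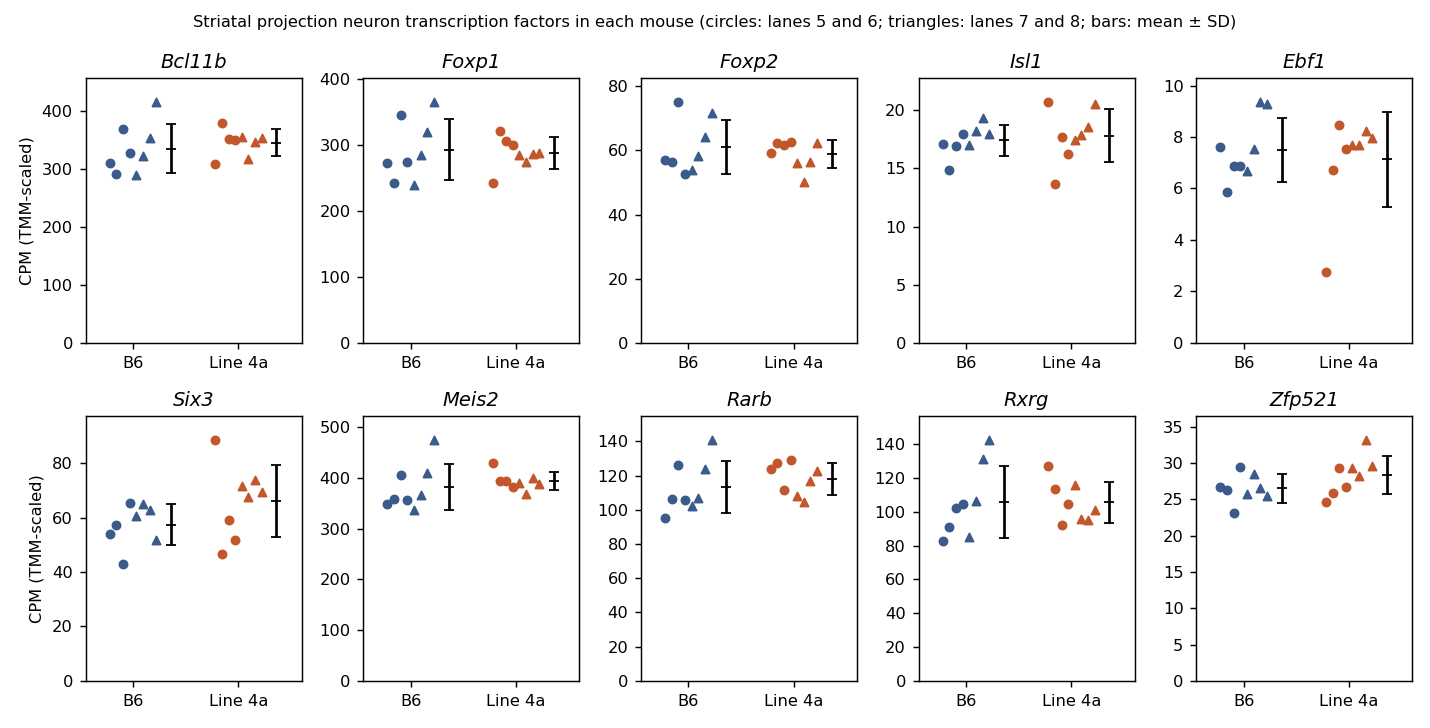
CPM of the 10 factors in each mouse (8 B6 in blue, 8 Line 4a in orange; circles, mice sequenced on lanes 5 and 6; triangles, on lanes 7 and 8), with the mean ± SD of each genotype in black; axes start at 0. The genotypes overlap in every panel, and *Ebf1* in Line 4a mouse 1 (2.76 CPM) lies far below the rest. The *Six3* triangles, 4 mice per genotype, span 67.5 to 73.9 CPM in Line 4a and 51.7 to 65.0 CPM in B6.

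The lane pair is the only batch that the labels give: mice 1 to 4 of each genotype ran on lanes 5 and 6, and mice 5 to 8 on lanes 7 and 8. On lanes 7 and 8, *Six3* was at 70.5 ± 2.77 CPM in Line 4a and 59.99 ± 5.82 CPM in B6 mice (SD, n = 4 each). The edgeR test on these 8 mice gave a p of 0.00683 and an FDR of 0.506. The 2 ranges did not overlap, but the share of all genes without overlap among so few mice was not counted. On lanes 5 and 6 it was at 61.4 ± 18.6 and 54.9 ± 9.31 CPM (SD, n = 4 each), with an edgeR p of 0.434. *Zfp521* had an edgeR p of 0.0255 on lanes 7 and 8, with 30.02 ± 2.14 CPM in Line 4a and 26.6 ± 1.40 CPM in B6 mice, and of 0.900 on lanes 5 and 6. These are 2 of 10 factors at an unadjusted p under 0.05 on lanes 7 and 8, where 9.01% of all genes tested were called. The sign of the fold change differed between lane pairs for others: *Rxrg* was at 0.20 on lanes 5 and 6 and -0.19 on lanes 7 and 8, and the median of the 10 was 0.07 and -0.05. The interaction of genotype with lane pair tests such differences directly. It was called at an unadjusted p under 0.05 for 1.88% of genes and for 0 of the 10 factors, and the smallest p among them was 0.0611, for *Rxrg* (-0.39, lanes 7 and 8 minus lanes 5 and 6, FDR 0.950).

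Across the 16 mice, the factors varied together in part. Relations were computed on log2 CPM centred on each genotype's mean, with p from 100000 shuffles of mice within genotype, for 45 pairs of factors. Of these, 16 passed an adjusted p under 0.05 by Pearson's r and 9 by Spearman's rho, and all values of a pair come from the same libraries. *Bcl11b* and *Foxp1* were the closest (r = 0.96, rho = 0.95, permutation p = 1e-05, the smallest the shuffles can give, adjusted p = 0.00045). This relation held without the 2 mice farthest from the median of *Foxp1* (r = 0.94), on lanes 5 and 6 (r = 0.98) and on lanes 7 and 8 (r = 0.96). The 2 farthest mice were always picked on 1 variable alone. This was the marker score or, in pairs, the factor later in the opening list. Extreme values of the other variable stayed in.

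*Foxp2* and *Rarb* followed (r = 0.85, rho = 0.90, permutation p = 0.00046, adjusted p = 0.00686), with r = 0.79 without the 2 farthest mice, 0.72 on lanes 5 and 6 and 0.96 on lanes 7 and 8. *Meis2* and *Rarb* had r = 0.84 and rho = 0.81 (permutation p = 0.00061, adjusted p = 0.00686), 0.71 without the 2 farthest mice, and 0.64 and 0.93 within the lane pairs. Over all 15 pairs among *Bcl11b*, *Foxp1*, *Foxp2*, *Meis2*, *Rarb* and *Rxrg*, r ran from 0.50 to 0.96 with a median of 0.75. These 6 factors were grouped by their r in these same mice, so that a high range was given by the choice. *Ebf1*, left out, had r = 0.58 with *Foxp1* (permutation p = 0.00546, adjusted p = 0.0205, and 0.0555 by rho). With *Bcl11b* it had r = 0.52 (permutation p = 0.00866, adjusted p = 0.0278, and 0.0935 by rho). Its r was 0.13 with *Foxp2*, 0.05 with *Rarb*, -0.00079 with *Meis2* and -0.08 with *Rxrg*. Over the 15 pairs, r ran from 0.31 to 0.96 without B6 mouse 8, and from -0.10 to 0.98 on lanes 5 and 6. On lanes 7 and 8 it ran from 0.76 to 0.98. The weaker relations thus rest on some of the mice, and not only those of *Rxrg*. *Bcl11b* and *Meis2* had r = 0.73 over all mice, 0.40 without the 2 farthest and 0.19 on lanes 5 and 6. For *Foxp1* and *Meis2* these were 0.66, 0.36 and 0.19.

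*Isl1* and *Six3* had r = 0.71 and rho = 0.72 (permutation p = 0.0051, adjusted p = 0.0205). The relation was 0.61 without the 2 farthest mice, 0.74 on lanes 5 and 6, and 0.10 on lanes 7 and 8, so that it was not seen in the second lane pair. *Six3* ran against *Foxp1* (r = -0.61, rho = -0.54, permutation p = 0.00514, adjusted p = 0.0205), with r = -0.47 without the 2 farthest mice, -0.84 on lanes 5 and 6 and -0.53 on lanes 7 and 8.

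**Figure D4:**
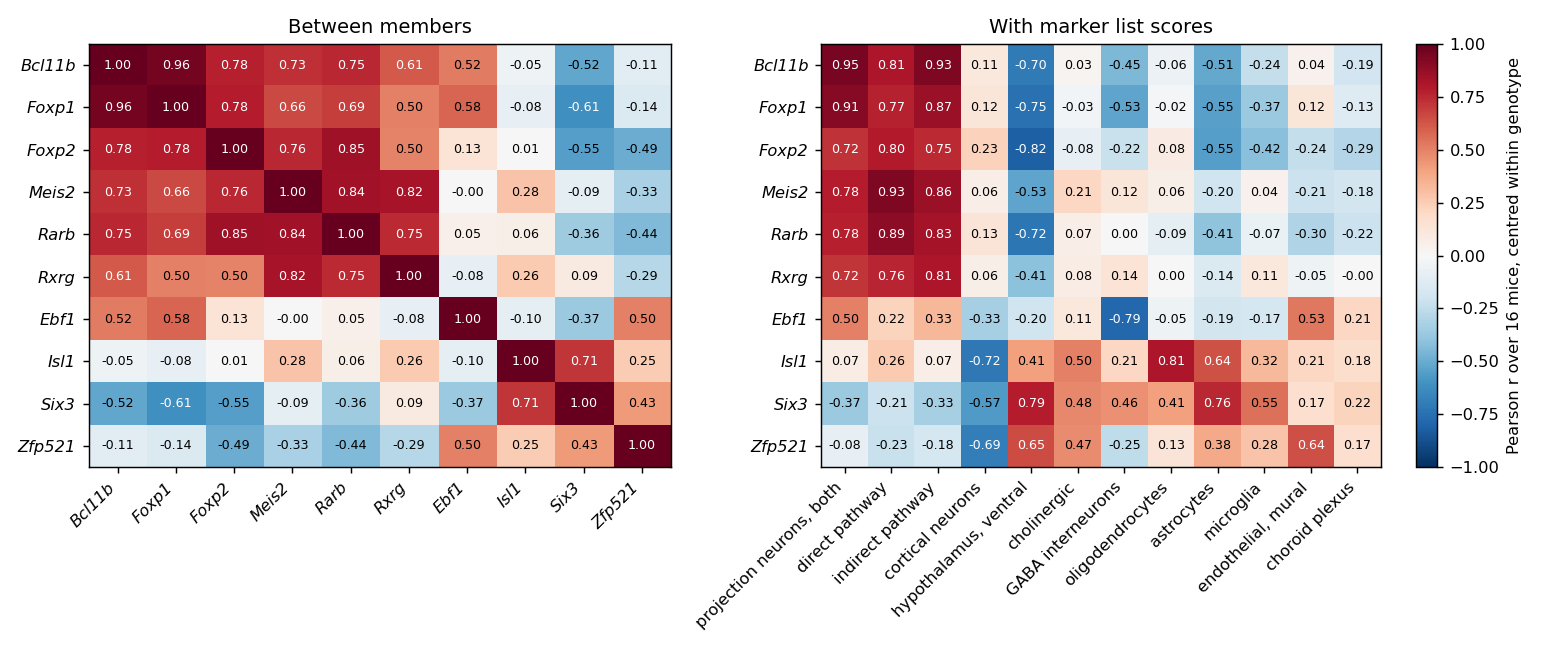
Pearson r over 16 mice of log2 CPM centred within genotype, between the 10 factors (left) and between each factor and the score of 12 marker lists (right); red is positive and blue negative. *Bcl11b*, *Foxp1*, *Foxp2*, *Meis2*, *Rarb* and *Rxrg* form a block with r of 0.50 to 0.96, a grouping picked from these same values. They follow the projection neuron lists, while *Isl1* and *Zfp521* run against the cortical list (-0.72 and -0.69). *Six3* has -0.57 with that list, -0.10 without the 2 mice farthest from its median and -0.71 without the mouse highest in *Six3*.

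Each factor was also set against scores of 12 marker lists, where a score is the mean standardized log2 CPM of a list, which makes 120 relations; 31 passed an adjusted p under 0.05 by r and 12 by rho. With the score of 14 genes of both kinds of projection neuron, *Bcl11b* had r = 0.95 and rho = 0.92 (permutation p = 2e-05, adjusted p = 0.0008), 0.90 without the 2 farthest mice, and 0.91 and 0.98 within the lane pairs. *Meis2* had r = 0.93 and rho = 0.86 with the direct-pathway score (permutation p = 7e-05, adjusted p = 0.0021), 0.84 without the 2 farthest mice, and 0.80 and 0.96 within the lane pairs. For the 6 genes of the block, r with the 3 projection neuron scores ran from 0.72 to 0.95. For the shared list it ran from 0.57 to 0.92 without B6 mouse 8, from 0.15 to 0.91 on lanes 5 and 6 and from 0.85 to 0.98 on lanes 7 and 8, and by Spearman's rho the adjusted p reached 0.0826 for the shared and 0.149 for the direct-pathway list. For the shared list, r had a median of 0.94 among B6 mice (0.80 to 0.97) and of 0.26 among Line 4a mice (-0.35 to 0.88). The score itself spread less among Line 4a mice (SD 0.37, n = 8) than among B6 mice (SD 0.96, n = 8), so that the 2 medians are not on a like footing. The difference in r was not tested. *Ebf1*, outside the block, had r = 0.50 with the shared score (rho = 0.58, permutation p = 0.00393, adjusted p = 0.0219, and 0.107 by rho). It had r = 0.22 with the direct-pathway and 0.33 with the indirect-pathway score.

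*Six3* followed the list of hypothalamus and ventral forebrain genes (r = 0.79, rho = 0.68, permutation p = 0.00022, adjusted p = 0.0033, and 0.0522 by rho), with 0.62 without the 2 farthest mice, and 0.84 and 0.75 within the lane pairs. It followed the astrocyte list about as closely (r = 0.76, rho = 0.66, permutation p = 0.00093, adjusted p = 0.0093, and 0.0522 by rho), with 0.46 without the 2 farthest mice, 0.81 on lanes 5 and 6 and 0.13 on lanes 7 and 8. With the microglial list it had r = 0.55 (rho = 0.44, permutation p = 0.0128, adjusted p = 0.0494), 0.43 without the 2 farthest mice, and 0.83 and -0.53 within the lane pairs, so that the sign turned between them. *Six3* did not follow the indirect-pathway score (r = -0.33, rho = -0.32, permutation p = 0.153, adjusted p = 0.359), with -0.32 without the 2 farthest mice, and -0.53 and -0.55 within the lane pairs. With the shared projection neuron score it had r = -0.37 (permutation p = 0.110, adjusted p = 0.270).

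The 6 genes of the block ran the other way with the hypothalamic and ventral forebrain list, with r from -0.82 to -0.41 and a median of -0.71. *Foxp2* had the lowest (r = -0.82, rho = -0.66, permutation p = 0.00018, adjusted p = 0.00309), with -0.74 without the 2 farthest mice, and -0.91 and -0.67 within the lane pairs. *Foxp1* had r = -0.75 (rho = -0.71, permutation p = 0.00232, adjusted p = 0.0172), -0.66 without the 2 farthest mice, and -0.81 and -0.78 within the lane pairs.

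By r, though not by rho, *Isl1* was closest to the oligodendrocyte list (r = 0.81, rho = 0.54, permutation p = 0.00119, adjusted p = 0.0110, and 0.168 by rho), with 0.48 without the 2 farthest mice, and 0.88 and 0.59 within the lane pairs. With the cholinergic list it had r = 0.50 (rho = 0.60, permutation p = 0.0798, adjusted p = 0.223, and 0.0898 by rho), 0.50 without the 2 farthest mice, and 0.42 and 0.52 within the lane pairs. With the direct-pathway list it had r = 0.26 (rho = 0.36, permutation p = 0.221, adjusted p = 0.473). *Zfp521* had r = 0.64 and rho = 0.66 with the endothelial and mural list (permutation p = 0.00427, adjusted p = 0.0219, and 0.0450 by rho), 0.60 without the 2 farthest mice, and 0.86 and 0.40 within the lane pairs. With the hypothalamic and ventral forebrain list it had r = 0.65 (rho = 0.57, permutation p = 0.00616, adjusted p = 0.0264, and 0.107 by rho), 0.45 without the 2 farthest mice, and 0.63 and 0.52 within the lane pairs.

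*Isl1* and *Zfp521* also ran against the cortical list. For *Isl1* r was -0.72 and rho -0.63 (permutation p = 0.00526, adjusted p = 0.0244), with -0.52 without the 2 farthest mice, and -0.61 and -0.82 within the lane pairs. For *Zfp521* r was -0.69 and rho -0.66 (permutation p = 0.0053, adjusted p = 0.0244), with -0.58 without the 2 farthest mice, and -0.74 and -0.49 within the lane pairs. With *Six3* the cortical list had r = -0.57 (rho = -0.44, permutation p = 0.0335, adjusted p = 0.104), and -0.52 and -0.39 within the lane pairs. It was -0.10 without the 2 farthest mice, so that the relation over 16 mice depends on them. They were picked on the cortical score, and the mouse with the highest *Six3* value stayed in. Without that mouse alone r was -0.71. It was -0.82 among B6 mice and -0.44 among the congenic mice.

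**Figure D5:**
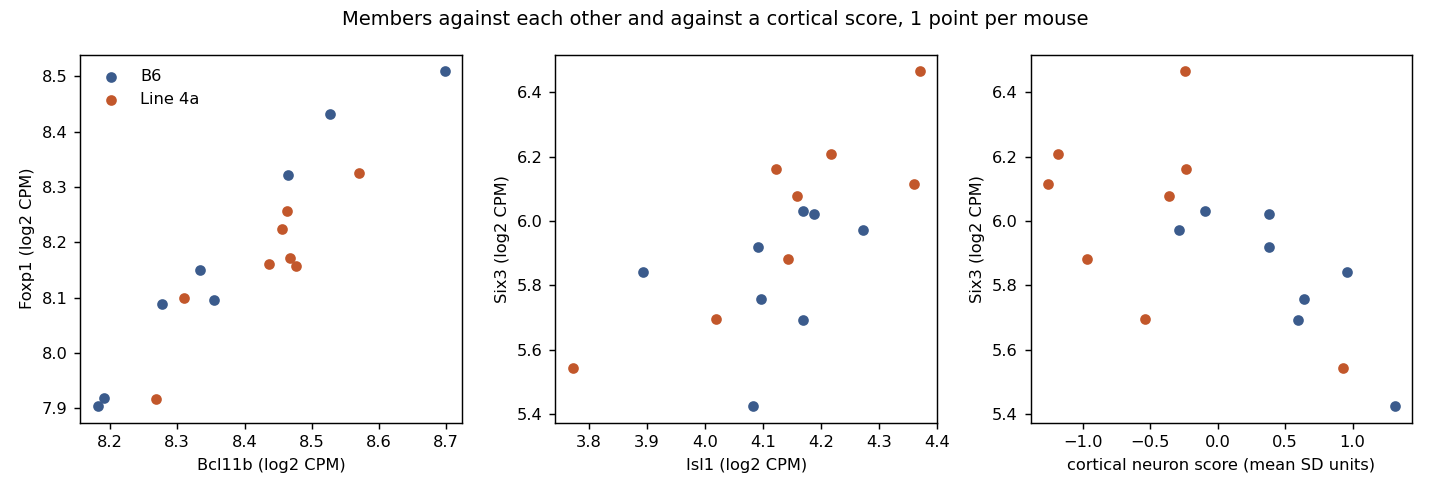
Log2 CPM of *Foxp1* against *Bcl11b* (left), of *Six3* against *Isl1* (middle), and of *Six3* against the cortical score in SD units (right), 1 point per mouse, B6 in blue and Line 4a in orange. The first pair lies close to a line (r = 0.96 within genotype), the second is looser (0.71), and the Line 4a points in the third sit mostly to the left, at lower cortical scores.

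The cortical list itself moved with genotype. Of its 12 markers, 8 were lower in Line 4a mice at an unadjusted p under 0.05 and 0 were higher, beside 5.14% of all genes lower and 4.86% higher, and 0 passed an FDR of 5%. Their median fold change was -0.54, beside 0.01 over all genes. The markers summed to 673 to 1016 CPM in B6 mice and 507 to 900.3 CPM in Line 4a mice, none was at 0, and their part in the results for the factors was not tested. *Neurod6* had the smallest p of the list (fold change -0.56 ± 0.13, log2, SE; edgeR p = 0.00053, FDR 0.331). With the cortical score as a covariate, the fold change of *Six3* went from 0.20 to -0.02 (edgeR p = 0.903). That of *Zfp521* went from 0.10 to -0.04 (edgeR p = 0.579) and that of *Isl1* from 0.03 to -0.14 (edgeR p = 0.0954). For *Ebf1* it went from -0.07 to -0.27 (edgeR p = 0.215). The score itself averaged 0.48 for B6 and -0.48 for Line 4a, so that this fit cannot separate cortical content from genotype.

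The gene most like a factor, among 11817 other genes at a mean of 5 CPM or more, was named by Pearson's r over the 16 mice as a description with no test. *Scn4b*, a sodium channel subunit of projection neurons, was most like *Bcl11b* (r = 0.96), and *Arpp21*, a regulated phosphoprotein of the striatum, most like *Rarb* (0.94). For the other factors except *Meis2*, which is not reported here, these were *Tgfa* for *Foxp1* (0.95), *Gucy1b3* for *Foxp2* (0.91), *Shb* for *Rxrg* (0.94), *Nde1* for *Isl1* (0.95), *Ramp3* for *Six3* (0.95), *Ephb4* for *Zfp521* (0.91) and *C2cd3* for *Ebf1* (0.98, and 0.90 without Line 4a mouse 1). The mean of the 10 factors was most like *Clip4* (0.93), *Gng7* (0.92), *Rasd2* (0.91), *Pde1b* (0.90) and *Drd1a*, the D1 dopamine receptor gene (0.89).

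Family relatives of the factors were counted in the same fit. Of 19 listed, 17 were tested (*Isl2* and *Six6* were too low), 3 were higher and 1 lower in Line 4a mice at an unadjusted p under 0.05, beside 4.86% and 5.14% of all genes. At an FDR of 5% there were 0. *Meis3*, a relative of *Meis2*, had the smallest p, with 35.3 ± 1.35 CPM in B6 and 39.0 ± 2.77 CPM in Line 4a mice (SD, n = 8 each). This is a fold change of 0.14 ± 0.05 (log2, SE; edgeR p = 0.0063, FDR 0.385). *Meis1* and *Rarg*, the other two that were higher, are named after their values were seen. The relatives' median fold change was -0.0011, beside 0.01 over all genes.

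Among 15 tested of 16 other factors of the ganglionic eminence and striatal lineages, 1 was higher and 1 was lower in Line 4a mice at an unadjusted p under 0.05. These counts stand beside 4.86% of all genes higher and 5.14% lower. At an FDR of 5% there were 0, and the median fold change was -0.01. The higher one was *Dlx6*, named after its value was seen. The lower one, *Mef2c*, an activity-dependent factor that cortical neurons also express strongly, was at 232 ± 34.5 CPM in B6 and 180.1 ± 29.9 CPM in Line 4a mice (SD, n = 8 each). This is a fold change of -0.36 ± 0.10 (log2, SE; edgeR p = 0.0019, FDR 0.331). For the synthesis, transport and breakdown of retinoic acid and the cofactors of its receptors, 0 of 13 tested of 15 genes passed an unadjusted p under 0.05, with a median fold change of 0.0021. *Ncor1*, a corepressor of nuclear receptors, had the smallest p there (0.104, edgeR, fold change -0.14 ± 0.08, log2, SE).

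Among effector genes of projection neurons, none of 14 genes of both pathways, none of 6 of the direct pathway and none of 5 of the indirect pathway passed an unadjusted p under 0.05. Their median fold changes were each 0.03, and the smallest edgeR p-values were 0.0758 for *Gad1*, 0.107 for *Chrm4* and 0.116 for *Gpr52*. Counts in lists of other cells stand beside the same 4.86% of all genes higher and 5.14% lower. There, 2 of 7 tested hypothalamic and ventral forebrain genes were higher at an unadjusted p under 0.05, led by *Lhx8* (fold change 0.36 ± 0.12, log2, SE; edgeR p = 0.0056), and *Hcrt*, *Pmch*, *Oxt* and *Sim1* were too low to test. This list, which *Six3* followed across mice, summed to 31.7 to 72.5 CPM in B6 and 40.7 to 65.7 CPM in Line 4a mice, and its part in the *Six3* values was not tested. Of 5 cholinergic genes 3 were higher, led by *Slc5a7* (0.19 ± 0.07; edgeR p = 0.0193), and of 7 genes of GABAergic interneurons 1 was lower, *Vip* (-0.44 ± 0.20; edgeR p = 0.0441). In the lists of oligodendrocytes (7 genes, smallest edgeR p = 0.0548, *Mag*), astrocytes (6, 0.0700, *Aldh1l1*), microglia (5, 0.0562, *Csf1r*), endothelial and mural cells (6, 0.0599, *Vtn*) and choroid plexus (5, 0.3005, *Clic6*), 0 passed, and no gene of any of these lists passed an FDR of 5%. Median fold changes were 0.05 for the hypothalamic, 0.19 for the cholinergic, -0.04 for the GABAergic, 0.10 for the oligodendrocyte, 0.08 for the astrocyte, 0.06 for the microglial, 0.11 for the endothelial and 0.20 for the choroid plexus list.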

How the data were processed

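RNA from bilateral striatal punches of 16 mice was sequenced as 50 bp single-end reads. The authors aligned reads with TopHat (TopHat2 2.0.0 in the submitters' processing notes; bowtie2 2.2.2 in their script) to mm10 and deposited raw counts per gene and lane from HTSeq 0.6.1p1 in union mode without strand, although the library kit keeps it. Reads with more than 1 alignment are left out of those counts. The authors' tables of fold changes and p-values from their own model were not used.

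Lane counts, technical repeats of 1 library, were summed per mouse. Genes were filtered with filterByExpr, scaled by TMM and tested with edgeR 4.0.16 (R 4.3.3; quasi-likelihood, Benjamini-Hochberg over all genes tested). Log2 CPM used a prior count of 0.5. Exact permutation tests of single factors used all splits of 8 against 8 mice (scipy 1.17.1, Python 3.11). Permutation p-values of relations, the block of 6 factors, and relations without single mice or within lane pairs or genotypes, were chosen after seeing the data. Scripts were tested on simulated data. DESeq2 1.42.0 and the other alternatives are named in the closing section.

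Positions and promoters are RefSeq's on GRCm38.p6, the build of mm10, and exon lengths GENCODE's on NCBIM37, matched by symbol. The factors and lists were chosen with earlier results of these data known. The text names the 10 factors, the gene with the smallest p of each list, the gene most like each factor and the 5 most like their mean, apart from 2 genes that are not reported here; *Six3os1* and *Eif4e3* are named for their overlap, and *Meis1*, *Rarg* and *Dlx6* were added after their values were seen. Labels call the mice separate animals, so that p-values measure the spread between mice. *Ebf1*, with 88 to 284 reads per mouse, had the largest counting error of the 10.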

Additional observations from a re-analysis of the deposited data

Results flagged for a closer look

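*Ebf1* in Line 4a mouse 1 was at 2.76 CPM, while the other 7 Line 4a mice were at 6.71 to 8.47 CPM. Its gap to the nearest of them was 0.693 of the group's range, above the 95% critical value of Dixon's test for 8 samples. Of the 20 groups examined (10 factors in each genotype) this was the 1 past it, and chance alone passes about 1 in 20 such groups. The same library had the highest *Six3* value (88.3 CPM), and 27.3% of its tallied entries had more than 1 alignment. The part of that in these values was not tested.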

How the results depend on the processing

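The count of 1 gene at an FDR of 5% was 28 with DESeq2, 20 with the likelihood ratio test, 2 with lane pair as a covariate, 0 with the replicate block, with the cortical score and on either lane pair alone, 1068 with lane files as independent samples (technical repeats taken as replicates), and 1 to 4 with 1 mouse left out, the 4 being without Line 4a mouse 1 and 3 without Line 4a mouse 6. The 1559 genes at an unadjusted p under 0.05 became 419 with the cortical score, 500 on lanes 5 and 6 and 3605 with lane files as independent samples, and 1107 to 2087 with 1 mouse left out. Upper-quartile scaling gave 922 higher and 674 lower, against 758 and 801. Of the factors, 2 passed an unadjusted p under 0.05 on lanes 7 and 8, 1 with lane files as independent samples (*Six3*, edgeR p = 0.0163), and 0 to 1 with 1 mouse left out (*Six3* without Line 4a mouse 2 or 4, *Zfp521* without Line 4a mouse 1). No alternative brought a factor under an FDR of 5%; the smallest was 0.111.

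The median of the factors, 0.04, was -0.051 on lanes 7 and 8 and ranged from 0.014 to 0.078 with 1 mouse left out. Of 290 fold changes of single factors under alternatives, 262 kept their sign. On lanes 7 and 8 *Bcl11b* (-0.013), *Meis2* (-0.041), *Rarb* (-0.072) and *Rxrg* (-0.19) turned, and on lanes 5 and 6 *Foxp1* (0.045) and *Foxp2* (0.031). With the cortical score *Foxp1* (0.014), *Foxp2* (0.0081), *Isl1* (-0.14), *Six3* (-0.016) and *Zfp521* (-0.037) turned, and with the second lane file alone *Isl1* (-0.030) and *Rxrg* (-0.012). *Rxrg* was also below 0 with RLE scaling (-0.0027), no filter (-0.0028) and DESeq2 (-0.0040). With 1 mouse left out *Foxp1* ranged from -0.061 to 0.025, *Ebf1* from -0.12 to 0.051 and *Rxrg* from -0.042 to 0.071. The cause of these turns was not tested.

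Mice of both genotypes share the numbers 1 to 8. The correlation of same-numbered mice ran from -0.12 to 0.36 and passed 0.1 in 3 of 8 pairs, and 3 of 16 mice correlated best with their own number. Same-numbered mice also shared a lane pair. Whether they shared a litter or cage is not in the labels, and these correlations cannot decide it. The fit with a replicate block called 1377 genes at an unadjusted p under 0.05 and 0 of the 10 factors, with a median of 0.04.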
